A study of Drosophila melanogaster with 35 samples.

Results

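The cytosolic ribosomal protein genes encode the protein part of the ribosome that translates nuclear mRNAs, with RpL genes for the large subunit and RpS genes for the small one. They were taken from the expression table of fly heads by symbol, as every RpL or RpS gene followed by a number, together with the stalk genes RpLP0, RpLP1 and RpLP2 and without the mitochondrial mRp genes. This gave 90 of the 14279 genes of the table, 52 RpL and 38 RpS. Of these, 81 had a mean log2 CPM (read counts scaled to library size, on a log2 scale) of at least 5 over all libraries and are called broadly expressed below, and 9 lay under 5.

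Each mature ribosome holds a single copy of nearly every ribosomal protein, so their genes are known for being expressed at similar levels and for moving together. In Drosophila, loss of 1 copy of many of them gives the Minute phenotype of slow growth and thin bristles. Transcription of the genes, assembly of the subunits in the nucleolus and translation of their mRNAs respond to Myc and to the TOR kinase pathway, which links ribosome number to growth and nutrition.

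RNA came from adult heads of 1 week old flies, in 35 libraries of 12 genotypes, and all of them carried the glial driver Repo-LexA. In 17 libraries the second driver was GMR-gal4, which is active in the retina (Repo-LexA/+;GMR-gal4/+). With it came TREM2WT/TYROBP (LexAop2-TREM2-WT,TYROBP), TREM2R47H/TYROBP (LexAop2-TREM2-R47H,TYROBP), tau (UAS-Tau), tau with either TREM2/TYROBP construct, and the driver control without any of these. In the other 18 libraries the second driver was elav-gal4, active in neurons, in flies with a Y chromosome (elav-gal4,Repo-LexA/Y), and the construct added in neurons was UAS-Aβ42 in place of tau. There were 3 libraries per genotype, and 2 for tau. TREM2 is a receptor of human microglia, TYROBP is its signaling adaptor and R47H is a TREM2 variant linked to Alzheimer's disease, and both constructs were expressed in fly glia. Heads of more than 100 flies were pooled per genotype, and nothing in the labels ties libraries to separate crosses, so the tests measure the spread between these libraries only.

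The marker genes of heads were present in every library, with summed levels of 4 photoreceptor genes of 14.5 to 15.0 in GMR heads and 14.8 to 15.0 in elav heads on the log2 scale. The drivers differed in markers of sex, although the methods name male flies for the sequencing. Yp1, a yolk protein gene of females, ranged over 13.2 to 14.1 in GMR libraries and 0.74 to 5.53 in elav libraries, and roX1, a dosage compensation RNA of males, over 5.43 to 5.89 in GMR libraries and 11.4 to 11.7 in elav libraries. Driver, sex markers and stock therefore cannot be told apart in any comparison between drivers. Among elav libraries, Yp1 was at 5.53 and 5.46 in control replicates 1 and 2 and at 0.95 in control replicate 3. Its highest value in the other elav genotypes was 1.70, in Aβ42 replicate 3. The library of TREM2WT/TYROBP replicate 1 with GMR-gal4 had the highest RNA integrity number (RIN, a score of how intact the RNA is), at 7.5. Yolk protein genes made up 47.3% of its deposited values, against a median of 7.26% over the GMR libraries. This share rose with RIN across the GMR libraries, from 0.224% in TREM2R47H/TYROBP replicate 3 at a RIN of 5.6. Set to the mean RIN, the Yp1 level of TREM2WT/TYROBP replicate 1 was the lowest of the GMR libraries, at 13.2. Depth is not known from log2 CPM values. The marker levels above and the levels below are log2 CPM set to the mean RIN of 6.71 with the fitted slope of each gene, unless deposited values are named. For Yp1 that slope was 5.58 per RIN unit, so its narrow range in GMR libraries holds at equal RIN only.

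Broadly expressed ribosomal protein genes formed a narrow band near the top of the table. Per kilobase of transcript, their median level was 9.80 on the log2 scale, with quartiles at 9.40 and 10.15 and an SD between genes of 0.81, and the median of all genes was 2.59. Large and small subunit genes had medians of 9.82 and 9.79. Only 0.742% of all genes reached the lower quartile of the family. RpL41, which encodes the shortest ribosomal protein, was highest at 11.75 per kilobase, followed by RpL27A at 10.93 and RpL39, a protein of the exit tunnel, at 10.79. The stalk genes RpLP1 and RpLP2, whose products recruit the elongation factors in more than 1 copy per ribosome, were at 10.49 and 10.57, and RpLP0, the base of the stalk, was at 9.92. RpS27A and RpL40, each translated as a fusion with ubiquitin, were at 10.55 and 9.83. The lowest broadly expressed members per kilobase were RpL34a at 6.41, RpL24-like at 7.88, RpS10b at 7.95, RpL23A at 8.03, RpL28 at 8.04 and RpL22 at 8.10. The order of the members' levels hardly differed between drivers, with a Pearson correlation of 0.98 and a Spearman correlation of 0.97 across the 81 genes, which share their length and base composition in both sets of libraries.

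**Figure D1:**
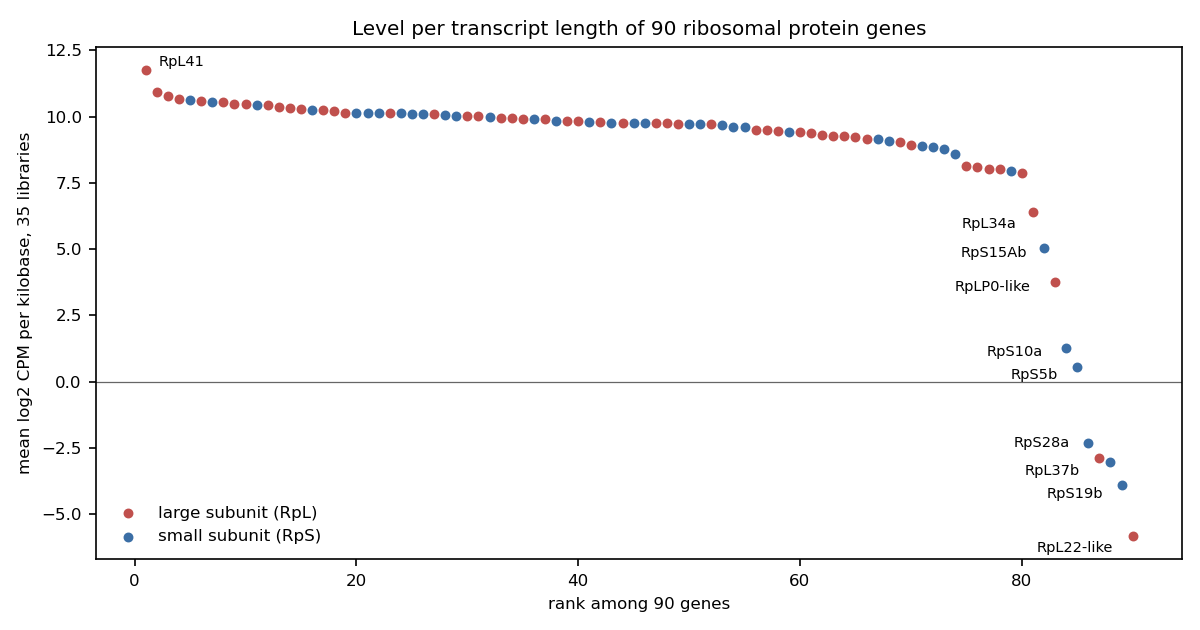
The mean level per kilobase of transcript (log2 CPM per kilobase over 35 libraries) of each of 90 ribosomal protein genes is plotted against its rank. Large subunit genes are red and small subunit genes blue. RpL41 stands at 11.75, levels then decline slowly from RpL27A at 10.93 to RpL24-like at 7.88, and the 9 genes with a mean log2 CPM under 5, mostly second copies of a paralog pair, fall away to the right.

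Among the paralog pairs, the second copy was far below the first in most cases. RpS5a exceeded RpS5b by 8.88 on the per-kilobase log2 scale, RpS10b exceeded RpS10a by 6.67, and RpS15Aa exceeded RpS15Ab by 4.73. RpL22-like, RpS19b, RpL37b, RpS28a and RpS28-like had mean log2 CPM between -5.52 and -4.03, where a value rests on very few reads. RpL22-like, RpS5b and RpS19b are known in flies as germline copies. In RpS14a and RpS14b, which are neighbours on the X chromosome, both copies were high and differed by 0.86 per kilobase, and reads of such near-identical genes may be shared out between them. RpL34b exceeded RpL34a by 1.72. RpL24-like and RpLP0-like carry ribosomal names but resemble assembly factors known from yeast, and they were 1.37 and 6.18 below RpL24 and RpLP0. In 35 of 35 libraries the first copy named here was above the second.

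Of the 90 members, 46 overlap another gene of the table, 26 of them a snoRNA gene and 24 a gene on the other strand. The library kit does not mark strand and the counting is not stated to use it, so reads of 2 genes on opposite strands cannot be told apart there. RpL12 and RpL39 are such a pair.

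The members moved together from library to library, and with RNA integrity. Within genotypes, the level of the broadly expressed members rose by a median of 0.34 per RIN unit (1.27-fold), with slopes from 0.12 for RpL24-like to 0.52 for RpL41, and 81 of 81 were above 0. The median slope of all genes was 0.01, with quartiles at -0.09 and 0.11, and 2.63% of the 4567 genes with a mean log2 CPM of at least 5 had a slope as high as the members' median. Fitted in GMR libraries alone the members' median slope was 0.35 with 81 above 0, and in elav libraries alone it was 0.30 with 78 above 0. The exceptions in elav libraries were RpL22 at -0.34, RpS10b at -0.12 and RpL23A at -0.12. Without TREM2WT/TYROBP replicate 1 of GMR-gal4 the median slope was 0.33. The authors had adjusted the deposited values for RIN in a way not given in the sources used here, and the yolk protein genes kept slopes of 4.24 to 5.68, so the part of that adjustment in these slopes was not tested.

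After genotype and RIN were taken out, pairs of broadly expressed members had a median residual correlation of 0.70 over 3240 pairs, against 0.02 for pairs of genes with a mean log2 CPM of at least 5. These values describe 35 libraries that share their preparation. RpL11, RpL12 and RpL26 followed the rest most closely, with median correlations of 0.85 to the other members. The genes that followed the family least were RpL22 at -0.07, RpS10b at 0.04, RpL38 at 0.10, RpL28 at 0.12 and RpL23A at 0.13. RpS10b and RpL22 nevertheless moved with each other at 0.83, RpLP2 and RpL22 at 0.74, and RpL23A and RpS10b at 0.70. RpL22 also had a residual SD of 0.25, against a median of 0.07 for the members.

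Heads with GMR-gal4 had higher ribosomal protein mRNA levels than heads with elav-gal4, in nearly every member. A gene is called here where limma gave a Benjamini-Hochberg adjusted p under 0.05 over all 14279 genes and a fold change above 1.2. In GMR control heads against elav control heads, 81 of 90 members were called, and all 81 were higher in GMR control heads. Among all genes, 24.7% were called and 13.2% were called higher. The broadly expressed members differed by a median of 0.77 (1.71-fold), with 0.75 for large and 0.80 for small subunit genes.

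The largest differences were in RpL41, RpLP1, RpL39, RpL36A and RpL30. RpL41 had 10.61, 10.66 and 10.69 in GMR control libraries, against 9.49, 9.54 and 9.40 in elav control libraries, a difference of 1.18 ± 0.08 (SE; adjusted p 1.83e-11 by limma, n = 3 each). RpLP1 was at 10.57 ± 0.10 in GMR control heads and 9.55 ± 0.03 in elav control heads (SD, n = 3 each), a difference of 1.03. RpL39, RpL36A and RpL30 differed by 1.03, 1.00 and 0.99. RpS27A differed by 0.93, RpLP2 by 0.72, RpLP0 by 0.68 and RpL40 by 0.66. Called members with the smallest differences were RpS10b at 0.28, RpL24-like at 0.28, RpL23A at 0.35, RpS14b at 0.46 and RpL34a at 0.46. RpL22 was the only broadly expressed member not called, with 8.18 ± 0.37 in GMR control heads and 8.28 ± 0.09 in elav control heads (SD, n = 3 each) and a 95% interval of the difference from -0.53 to 0.33. RpL22 overlaps CR42491, a gene on the same strand at X:762615-763810. CR42491 was called higher in GMR control heads, by 0.81 (adjusted p 9.50e-09 by limma). The part of this overlap in the RpL22 values was not tested. Among the low members, RpLP0-like was called, at 0.58.

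**Figure D2:**
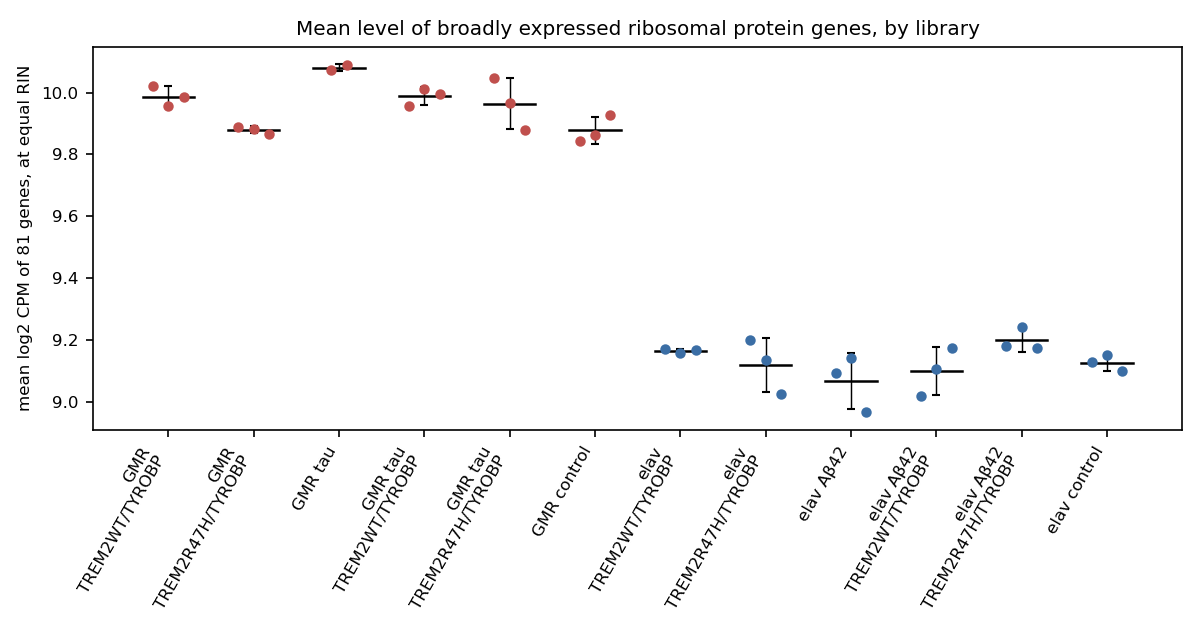
Mean log2 CPM at equal RIN over the 81 broadly expressed ribosomal protein genes, 1 point per library, with the mean and SD of each genotype. The 17 GMR libraries (red) lie between 9.84 and 10.09, all above the 18 elav libraries (blue), which lie between 8.97 and 9.24.

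The same separation held over all genotypes of the drivers. All 17 GMR libraries were above all 18 elav libraries in 79 of the 81 broadly expressed members. This held for 8.005% of all genes and for 14.3% of genes with a mean log2 CPM of at least 5. In the deposited values, not set to equal RIN, this held for 72 of 81 members and 3.36% of all genes. Summed over the 90 members, the level was 83613 to 98978 CPM in GMR libraries and 45016 to 53947 CPM in elav libraries, with no overlap. As a share of all values of a library, the members took 5.61 to 8.94% (median 7.96%) in GMR libraries and 4.89 to 6.13% (median 5.74%) in elav libraries, and these ranges overlap through TREM2WT/TYROBP replicate 1 of GMR-gal4, the lowest GMR library. The deposited values of a library do not add up to a fixed total, with sums of 0.950 to 2.03 × 1e6 CPM in GMR libraries and 0.911 to 0.954 × 1e6 CPM in elav libraries. The members on the X chromosome (14 of the broadly expressed) differed between the control heads by a median of 0.75 and the 67 on autosomes by 0.77, while the median of all X genes was 0.07. In bulk heads, a change in the number of cells of a type and a change in RNA per cell cannot be told apart. The marker lists also differed between these controls: 3 of 3 yolk, 3 of 4 photoreceptor and 2 of 3 muscle genes were called higher in GMR control heads, 1 fat body gene was called higher and 2 lower, and 1 of 4 neuronal, 2 of 4 hemocyte, 1 of 6 testis and all 3 dosage compensation genes were called lower. The summed muscle level was 11.2 to 11.3 in GMR control heads and 10.5 to 10.7 in elav control heads, and the summed fat body level was 15.1 to 15.2 in GMR control heads and 14.6 in elav control heads. The summed neuronal level was 10.74 to 10.81 in GMR control heads and 10.98 to 11.04 in elav control heads, and the photoreceptor level was 14.9 to 15.0 in GMR control heads and 14.9 in elav control heads. The part of these differences in the result was not tested.

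**Figure D3:**
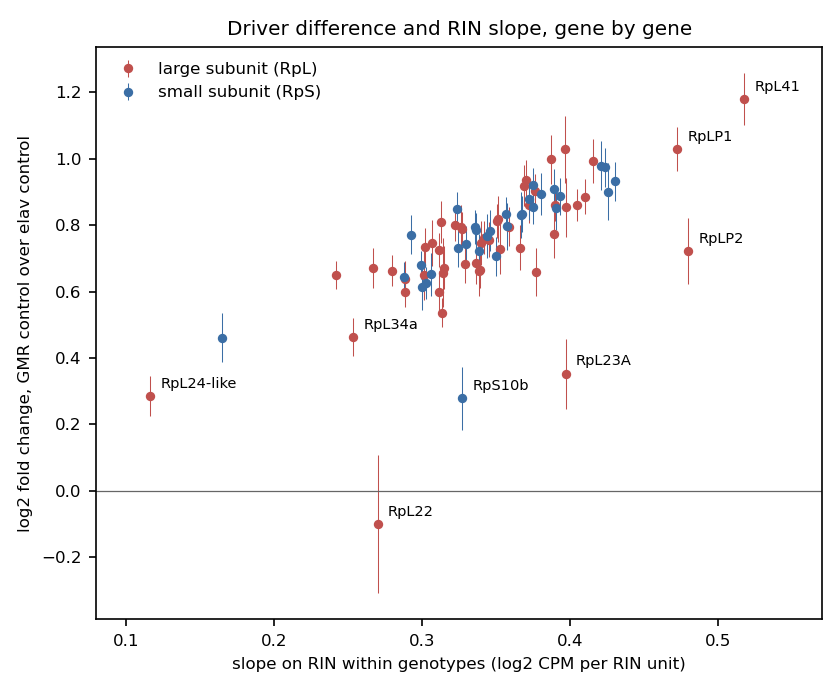
Each point is 1 of the 81 broadly expressed genes, with its slope on RIN within genotypes (log2 CPM per RIN unit) on the x axis and its log2 fold change of GMR control over elav control heads, with the SE, on the y axis. Genes with steeper slopes had larger differences, from RpL24-like at 0.12 and 0.28 to RpL41 at 0.52 and 1.18. RpL22, RpL23A and RpS10b lie below the band.

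Across the 81 members, this difference had a Pearson correlation of 0.69 with the slope on RIN and of -0.30 with log2 transcript length, as a description of genes that are not independent. Without the RIN term the median was 0.88 and 81 members were called, where 28.8% of all genes were called. The deposited values used there had already been adjusted for RIN by the authors, so the part of RNA integrity in the difference was not tested. Quantile normalization lowered the median to 0.54, with 80 called.

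Some other parts of the translation machinery differed between the drivers too. In this comparison 24.7% of all genes were called and 13.2% were called higher. The ribosomal proteins with other symbols, sta and Rack1, were higher in GMR control heads by 0.91 and 0.77. Of 24 genes of ribosome biogenesis, 23 were called higher and none lower, led by the snoRNP proteins nop5 at 1.32, Nop60B at 1.28, Fib (fibrillarin) at 1.24, Nop56 at 1.09 and NHP2 at 0.95. Of 34 translation factors, 23 were called higher and none lower, led by eIF-5A at 0.79, the elongation factor Ef1alpha48D at 0.78, eEF1delta at 0.75, Ef1gamma at 0.73 and Ef1beta at 0.68. RNA polymerase I, which makes the large rRNAs, had 3 of 6 subunits called higher, with RpI135 at 0.60. Among 23 regulators 5 were called higher and none lower, a share between those of all genes called higher and called in either direction. They included dm, the fly Myc gene, at 0.98, Thor, the 4E-BP target of TOR, at 0.81, Rheb at 0.38 and S6k at 0.33. Of 72 mitochondrial ribosomal protein genes, 2 were called higher and 2 lower, with a median of 0.10.

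Within GMR heads, tau was the genotype with the highest level at equal RIN. The library means over the broadly expressed members were then 10.07 and 10.09 in tau heads, against 9.84, 9.86 and 9.93 in GMR control heads, with no overlap. In the deposited values they were 9.83 and 10.16 in tau heads, against 9.91, 9.89 and 9.99 in GMR control heads, and overlapped. Without the RIN term the median difference from control was 0.15 for TREM2WT/TYROBP and 0.05 for tau. Of the 90 members, 9 were called higher and none lower in tau heads, where 5.32% of all genes were called and 2.46% called higher. The median difference of the broadly expressed members was 0.19, all 81 were above 0, and the libraries did not overlap in 78 of them, against 22.7% of all genes separated in that direction. At an unadjusted p under 0.05 there were 64 members, against 22.2% of all genes.

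The 9 members called higher with tau were from both subunits. RpL5, which binds the 5S rRNA, had 11.39 and 11.45 in tau heads, against 11.0041, 11.14 and 11.12 in GMR control heads, a difference of 0.33 ± 0.05 (SE, adjusted p 4.31e-05). RpL10, joined late in the assembly of the large subunit, had 10.92 and 11.0003 in tau heads, against 10.62, 10.60 and 10.70 in GMR control heads, a difference of 0.32 ± 0.06. In both genes the tau libraries lay above all control libraries. RpLP2 was higher by 0.50, RpL23A by 0.46, RpS10b by 0.44, RpS21 by 0.32, RpL8 by 0.31, RpLP1 by 0.28 and RpS27A by 0.27. All of these were under 1.5-fold. RpL22 was not called, at a difference of 0.64 (adjusted p 0.0921). Of the 3 muscle marker genes 3 were called lower in tau heads (summed level 10.7 in tau heads and 11.2 to 11.3 in control heads), as was 1 of 4 photoreceptor genes (14.5 to 14.6 in tau heads and 14.9 to 15.0 in control heads), and their part in the result was not tested. With 2 tau libraries the count was fragile: it was 2 without tau replicate 2, which leaves a lone library assumed to vary like the others, 4 without control replicate 1, and 0 without the RIN term, where the median was 0.05.

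**Figure D4:**
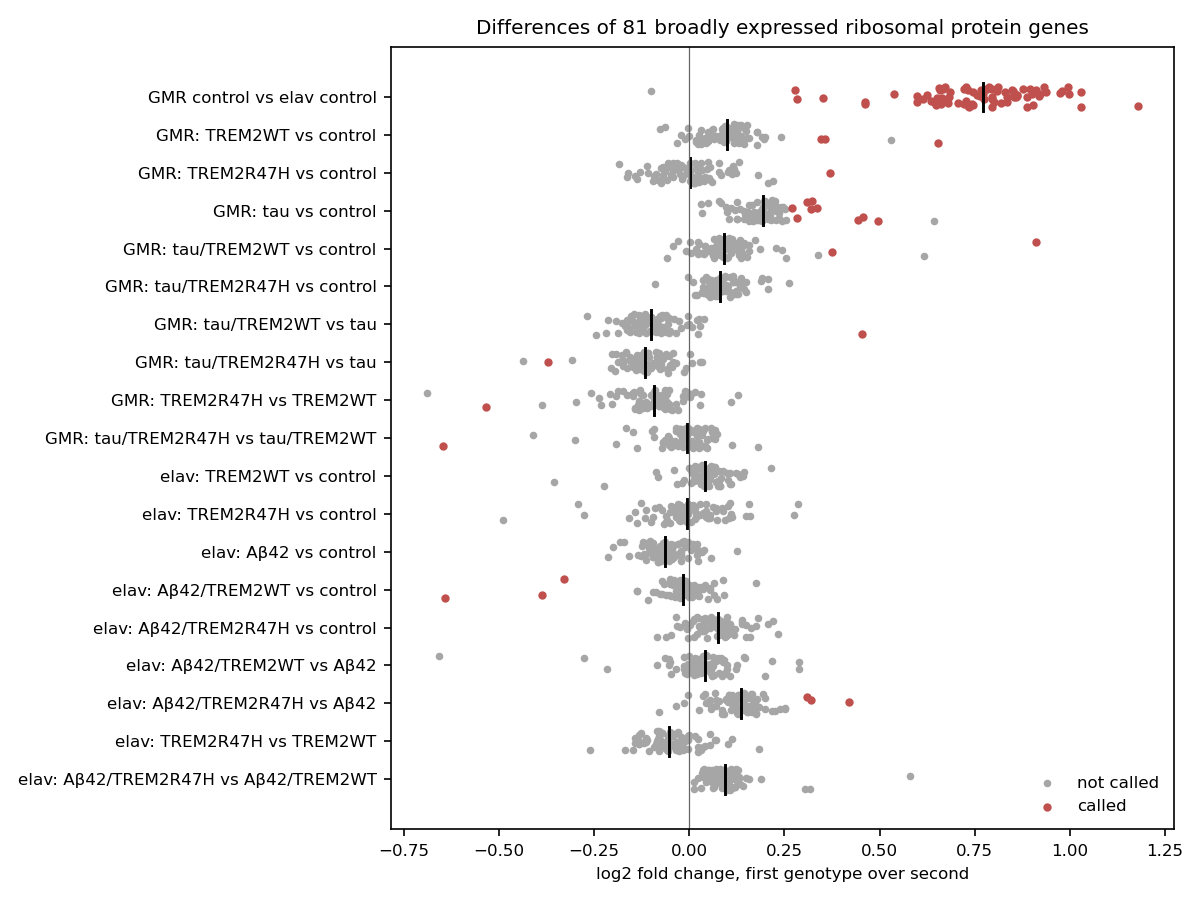
Log2 fold changes of the 81 broadly expressed ribosomal protein genes in each comparison of 2 genotypes (first over second), 1 point per gene, with called genes in red and the median as a black bar. Between the driver controls 80 of them are called at a median of 0.77. Within drivers the medians lie between -0.12 and 0.19, and between 0 and 9 of the 81 genes are called.

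When TREM2/TYROBP was added to tau, few members were called. With TREM2WT/TYROBP the median against tau alone was -0.10, with 8 of 81 above 0, and with TREM2R47H/TYROBP it was -0.12, with 4 of 81 above 0. Without the RIN term these medians were -0.20 and -0.01. In tau with TREM2WT/TYROBP 1 member was called, higher (RpL23A at 0.45), where 3.19% of all genes were called. In tau with TREM2R47H/TYROBP 1 member was called, lower (RpS10b at -0.37), where 3.48% were called. The first call was lost without tau replicate 2 or without tau/TREM2WT/TYROBP replicate 1, and the second without either tau library or without tau/TREM2R47H/TYROBP replicate 1 or 2.

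Against the GMR control, tau with TREM2WT/TYROBP had 2 members called, both higher, at a background of 5.7%, and tau with TREM2R47H/TYROBP had 0 called by limma at a background of 7.95%, with 13 at an unadjusted p under 0.05 (27.8% of all genes). Their medians were 0.09 and 0.08. For tau with TREM2WT/TYROBP the count was 1 without control replicate 1 or without its own replicate 1, and 5 without control replicate 3. For tau with TREM2R47H/TYROBP it was 1 without control replicate 3. TREM2WT/TYROBP alone had 3 members called, all higher, at a background of 4.69%, with a median of 0.10 and 74 of 81 above 0, and 1 called without control replicate 1 or 2 or without TREM2WT/TYROBP replicate 1 or 2. TREM2R47H/TYROBP alone had 1 member called, higher, at a background of 5.76%, with a median of 0.00.

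The variant was set against the wild-type receptor directly. TREM2R47H/TYROBP against TREM2WT/TYROBP had 1 member called, lower, at a background of 1.77%, with a median of -0.09 and 7 of 81 above 0. The count was 0 without TREM2WT/TYROBP replicate 2, 2 without its replicate 3 and 3 without TREM2R47H/TYROBP replicate 1. With tau in both genotypes, 1 member was called, lower, at a background of 2.07%, and the median was -0.01. The TREM2R47H/TYROBP libraries had RINs of 6.9, 5.7 and 5.6. Without the RIN term 66 members were called lower against TREM2WT/TYROBP, where 5.03% of all genes were called, with a median of -0.43. Against control, also without the RIN term, 19 were called lower, where 6.49% of all genes were called, with a median of -0.30. The median of tau with TREM2WT/TYROBP against control also changed sign without that term, to -0.16, and that of the variant against the wild-type receptor with tau became 0.20.

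The interaction asks if the effect of TREM2/TYROBP differs with tau. For TREM2WT/TYROBP, 0 members had an adjusted p under 0.05 by limma at a background of 0.357%, with 41 at an unadjusted p under 0.05 (14.5% of all genes), a median of -0.21 and 4 of 81 above 0. This count was 5 without control replicate 3, and 1 without TREM2WT/TYROBP replicate 1 or 2 or without tau replicate 1. For TREM2R47H/TYROBP, 0 members passed at a background of 0.175%, with 16 at an unadjusted p under 0.05 (10.7% of all genes) and a median of -0.12. Without the RIN term that median changed sign, to 0.27. Comparisons within a driver share their control libraries, so these values are not separate evidence.

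Within elav heads no member was called with either receptor alone or with Aβ42 alone. TREM2WT/TYROBP against control had 0 members called by limma at a background of 4.01% (6 at an unadjusted p under 0.05, and 19.4% of all genes), with a median of 0.04. TREM2R47H/TYROBP had 0 called at a background of 4.41% (11 at an unadjusted p under 0.05, and 20.9% of all genes), with a median of -0.01. Aβ42 had 0 called at a background of 6.1% (10 at an unadjusted p under 0.05, and 23.6% of all genes), with a median of -0.06. In each of the 3 comparisons the members' shares lay below those of all genes.

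Aβ42 with TREM2WT/TYROBP had 3 members called against control, all lower, at a background of 8.66%, and a median of -0.02. Aβ42 with TREM2R47H/TYROBP had 1 called, higher, at a background of 10.5%, and a median of 0.08 with 72 of 81 above 0. Against Aβ42 alone, adding TREM2WT/TYROBP gave 0 called at a background of 3.1% (15 at an unadjusted p under 0.05, and 18.3% of all genes) and a median of 0.04, with 3 called without Aβ42 replicate 3 or Aβ42/TREM2WT/TYROBP replicate 1 and 1 without Aβ42 replicate 1. Adding TREM2R47H/TYROBP gave 3 called, all higher, at a background of 6.16%, with a median of 0.14, 77 of 81 above 0 and 52 members at an unadjusted p under 0.05, against 26.5% of all genes. Libraries did not overlap in 49 of the 81, against 16.1% of all genes separated in that direction.

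The 3 members called there were RpL39, RpL29 and RpS14b. RpL39 had 8.58, 8.65 and 8.62 in Aβ42/TREM2R47H/TYROBP heads, against 8.30, 8.19 and 8.11 in Aβ42 heads, a difference of 0.42 ± 0.10 (SE, adjusted p 0.00560). RpL29, a large subunit protein, differed by 0.32 and RpS14b, a protein of the small subunit platform, by 0.31. Without Aβ42 replicate 3, the lowest of its genotype for RpL39, 1 member was called, and without Aβ42 replicate 1 there were 5.

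The variant against the wild-type receptor gave 0 members called in elav heads without Aβ42 (background 1.88%, 11 at an unadjusted p under 0.05 and 15.97% of all genes, median -0.05) and 1 called, higher, with Aβ42 (background 1.64%, median 0.09, 81 of 81 above 0). Without the RIN term the median with Aβ42 was 0.01. The interactions with Aβ42 gave 0 members at an adjusted p under 0.05 for TREM2WT/TYROBP (background 0.238%, 3 at an unadjusted p under 0.05 and 7.07% of all genes) and 0 for TREM2R47H/TYROBP (background 0.672%, 16 at an unadjusted p under 0.05 and 10.3% of all genes, median 0.13). Leaving out TREM2WT/TYROBP replicate 2 gave 1 call for the variant against the wild-type receptor without Aβ42 and 1 for TREM2WT/TYROBP against control, and the interactions had 1 each without Aβ42/TREM2WT/TYROBP replicate 1 or TREM2R47H/TYROBP replicate 1. As in GMR heads, several medians changed sign without the RIN term: that of TREM2R47H/TYROBP against control became 0.16, that of Aβ42 against control 0.02, that of Aβ42/TREM2WT/TYROBP against control 0.16 and that of the interaction for TREM2R47H/TYROBP -0.03.

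A few members went their own way. RpL23A, RpS10b and RpLP2 were called in 6, 5 and 3 of the 18 comparisons within drivers, more than any other member. RpL23A (FBgn0026372, 3L:1667192-1668654 on the minus strand in BDGP6) encodes a protein at the end of the exit tunnel. In TREM2WT/TYROBP heads with GMR-gal4 it had 8.85, 8.71 and 8.50, against 7.89, 8.03 and 8.17 in GMR control heads, a difference of 0.65 ± 0.10 (SE, adjusted p 0.000161). In tau/TREM2WT/TYROBP heads it had 9.09, 8.93 and 8.81, a difference from control of 0.91 ± 0.12 (SE, adjusted p 6.97e-06). Every library of these genotypes lay above every control library.

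In GMR heads RpL23A was lower with the R47H variant than with the wild-type receptor. TREM2R47H/TYROBP heads had 8.30, 7.97 and 8.19, a difference from TREM2WT/TYROBP heads of -0.53 ± 0.12 (SE, adjusted p 0.0205). Tau/TREM2R47H/TYROBP heads had 8.31, 8.21 and 8.36, a difference from tau/TREM2WT/TYROBP heads of -0.65 ± 0.11 (SE, adjusted p 0.00136). The call without tau was lost without TREM2WT/TYROBP replicate 2 or when GMR libraries were fitted alone. The call with tau was lost without the RIN term. In elav heads RpL23A was not called with TREM2WT/TYROBP, at 7.66, 7.64 and 7.65 in TREM2WT/TYROBP heads, against 7.57, 7.69 and 7.78 in elav control heads. Between the receptors in elav heads RpL23A was not called either. Its mean was 7.39 with TREM2R47H/TYROBP and 7.65 with TREM2WT/TYROBP. With Aβ42 it was 7.86 with the variant and 7.75 with the wild-type receptor. The effect of TREM2WT/TYROBP in GMR heads less that in elav heads was 0.69 ± 0.15 (SE, adjusted p 0.0136), where 1.82% of all genes passed, and 2 of 90 members passed. For TREM2R47H/TYROBP 0 members passed by limma at a background of 0.469%, with 1 at an unadjusted p under 0.05 (8.66% of all genes).

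Without TREM2WT/TYROBP replicate 1 of GMR-gal4, RpL23A was at 0.57 against control (adjusted p 0.00227) and the difference between drivers was 0.57 (adjusted p 0.0642). The count of members for this difference was 0 without that library, and 1 without GMR control replicate 1, elav control replicate 2 or 3 or elav TREM2WT/TYROBP replicate 3. The 3′ end of RpL23A overlaps the 5′ end of Uhg7, a snoRNA host gene on the same strand at 3L:1666288-1667307. Uhg7 itself was near the floor of the table, at -3.36 ± 0.36 in TREM2WT/TYROBP heads and -2.71 ± 0.33 in GMR control heads (SD, n = 3 each), and was not called in any of the comparisons.

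**Figure D5:**
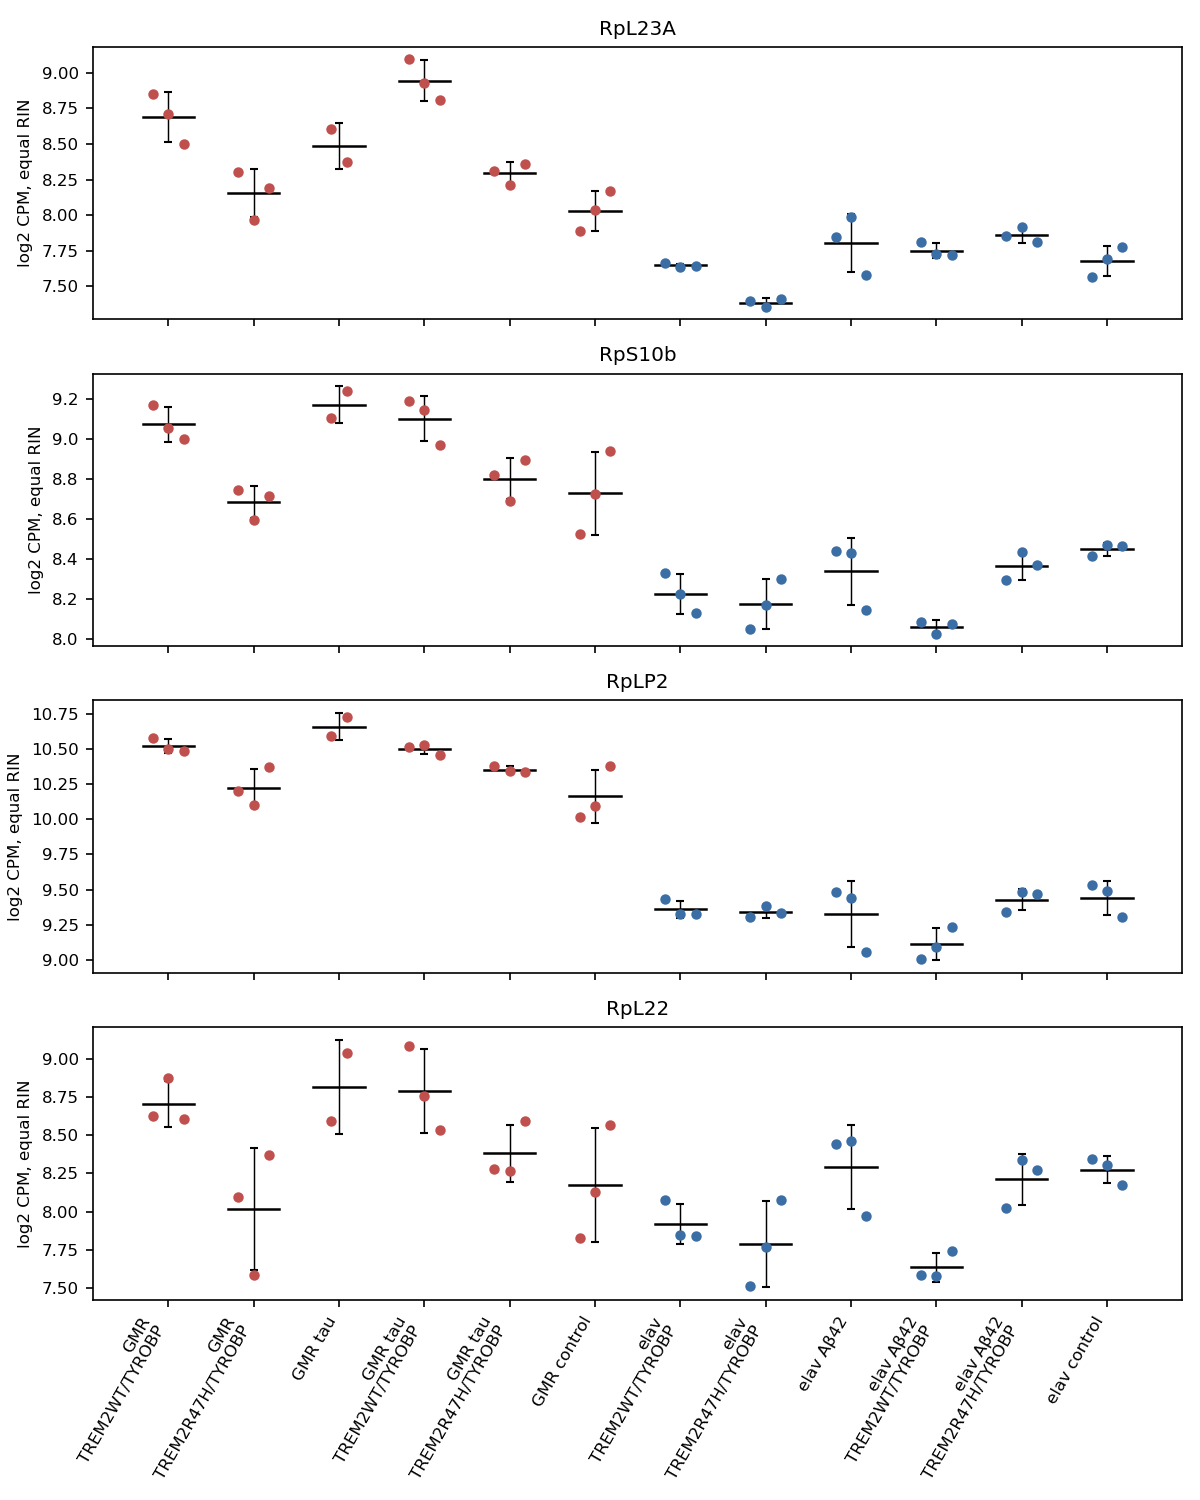
Log2 CPM at equal RIN of RpL23A, RpS10b, RpLP2 and RpL22 in each library, with the mean and SD of each genotype (GMR genotypes red, elav genotypes blue, each driver control last). RpL23A is highest in tau/TREM2WT/TYROBP heads, at 8.81 to 9.09. RpL22 varies most within genotypes.

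RpS10b (FBgn0261593, X:19598031-19599806, plus strand), a protein of the small subunit head, had 9.17, 9.06 and 9.0002 in TREM2WT/TYROBP heads with GMR-gal4, against 8.52, 8.73 and 8.94 in GMR control heads, a difference of 0.35 ± 0.09 (SE, adjusted p 0.0239). The lowest value with the receptor was above the highest control by less than the spread of the controls. Under elav-gal4 the gene ran the other way, with 8.33, 8.23 and 8.13 in TREM2WT/TYROBP heads, against 8.41, 8.47 and 8.47 in elav control heads, which was not called. The difference of these effects was 0.57 ± 0.13 (SE, adjusted p 0.0240), and 0.50 (adjusted p 0.0926) without TREM2WT/TYROBP replicate 1 of GMR-gal4. Without that library the difference from the GMR control was 0.29 (adjusted p 0.103). In tau heads RpS10b was higher than in the GMR control by 0.44 and in tau/TREM2WT/TYROBP heads by 0.37.

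In Aβ42/TREM2WT/TYROBP heads the called members were lower. RpS10b had 8.09, 8.03 and 8.08 in Aβ42/TREM2WT/TYROBP heads, a difference from elav control heads of -0.39 ± 0.10 (SE, adjusted p 0.00835), with no overlap. RpLP2 (FBgn0003274, 2R:16586129-16586732) had 9.01, 9.09 and 9.24 in these heads, against 9.53, 9.49 and 9.30 in elav control heads, a difference of -0.33 ± 0.10 (SE, adjusted p 0.0309). RpL22 (FBgn0015288, X:762560-765130), an RNA-binding protein of the large subunit surface, had 7.58, 7.58 and 7.74 in Aβ42/TREM2WT/TYROBP heads, against 8.35, 8.30 and 8.18 in elav control heads, a difference of -0.64 ± 0.22 (SE, adjusted p 0.0453). At equal RIN, all 3 genes were lower in every library of the genotype than in any control library. The RINs themselves did not overlap, at 7 to 7.1 in Aβ42/TREM2WT/TYROBP libraries and 6.4 to 6.8 in elav control libraries. All 3 calls were lost without the RIN term. They were also lost when elav libraries were fitted alone, where the slopes of RpL22 and RpS10b on RIN were below 0. RpL22 also lost its call when any 1 library of either genotype was left out. RpLP2 lost its call without elav control replicate 1 or 2 or without Aβ42/TREM2WT/TYROBP replicate 1 or 2, which left 1 member called.

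RpLP2 was higher in tau heads, at 10.59 and 10.73, and in TREM2WT/TYROBP heads with GMR-gal4, at 10.58, 10.50 and 10.48, than in GMR control heads, at 10.02, 10.09 and 10.38. The differences were 0.50 ± 0.11 (SE, adjusted p 0.00526) and 0.36 ± 0.10 (SE, adjusted p 0.0252). The second of these was 0.33 (adjusted p 0.0877) without TREM2WT/TYROBP replicate 1. RpL38 was the member called with TREM2R47H/TYROBP in GMR heads, at 9.59, 9.94 and 9.53, against 9.27, 9.28 and 9.41 in GMR control heads, a difference of 0.37 ± 0.12 (SE, adjusted p 0.0462). In mouse, the RpL38 protein is known for selective translation of Hox mRNAs. RpL38 lost its call without control replicate 1 or 2 or without TREM2R47H/TYROBP replicate 1 or 2.

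Of the low paralogs, RpS19b was called in Aβ42/TREM2R47H/TYROBP heads, at -2.44, -2.47 and -3.55, against -3.98, -6.42 and -5.36 in elav control heads and -6.32, -6.82 and -4.91 in Aβ42/TREM2WT/TYROBP heads. These are levels of well under 1 CPM, and adding 1 CPM before the logarithm ended both calls. Each call was also lost without Aβ42/TREM2R47H/TYROBP replicate 1 or 2, the one against control without elav control replicate 2 or 3, and the one against Aβ42/TREM2WT/TYROBP without its replicate 1 or 2. RpS5b ranged from -0.90 to 5.87 in GMR libraries, with a median of 2.85, and from -1.89 to -0.05 in elav libraries, with a median of -1.33. Its highest value, 5.87, was in TREM2R47H/TYROBP replicate 3 of GMR-gal4, and it was not called in any comparison, at 0.86 ± 1.72 in GMR control heads and -0.82 ± 0.33 in elav control heads (SD, n = 3 each).

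Genes of the same pathway were called within drivers too. Tau heads had 2 of 24 biogenesis genes called higher, Fib at 0.53 and nop5 at 0.38, and 2 of 23 regulators, where 5.32% of all genes were called: Thor at 0.54 and CG6272, the Irbp18 partner of Xrp1, at 0.33. When TREM2WT/TYROBP was added to tau, 4 biogenesis genes were called lower, nop5 at -0.40, Non1 at -0.38, U3-55K at -0.36 and Nop56 at -0.35, as was RpI135 at -0.29, where 3.19% of all genes were called in either direction. When TREM2R47H/TYROBP was added, 3 were called lower, Fib at -0.46, Non1 at -0.41 and nop5 at -0.40, as was RpI135 at -0.33, where 3.48% of all genes were called.

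Aβ42 heads had 4 of 23 regulators called higher and none lower, where 6.1% of all genes were called. These were Thor at 0.43, dm at 0.32, Xrp1, a transcription factor of the response to ribosomal protein mutations, at 0.31, and PEK, the eIF2 alpha kinase of the unfolded protein response, at 0.29. Non1, a nucleolar GTPase of large subunit assembly, was lower with Aβ42 at -0.30, with Aβ42/TREM2WT/TYROBP at -0.51 and with Aβ42/TREM2R47H/TYROBP at -0.36, where 10.5% of all genes were called. The called regulators with Aβ42/TREM2WT/TYROBP were dm, PEK, Xrp1 and InR, at 0.27 to 0.32, where 8.66% of all genes were called. Of 34 translation factors, eIF6, which keeps the subunits apart, was called with Aβ42 at 0.28.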

How the data were processed

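Fly head RNA was depleted of rRNA, primed with random hexamers and sequenced single-end. The authors aligned reads to BDGP6 with STAR 2.5.0b, counted them per Ensembl gene with featureCounts, left out genes that had under 5 reads everywhere, normalized by TMM and deposited log2 CPM values adjusted for RIN. Counts and depth cannot be recovered from them.

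All 14279 genes were fitted with limma 3.58.1 in R 4.3.3, with genotype and RIN as terms over 35 libraries (22 residual degrees of freedom). To be called, a gene had to change by over 1.2-fold with a p under 0.05 after Benjamini-Hochberg adjustment, and differences of effects the adjusted p alone. The fit was tested on simulated data. Named were up to 5 called members per direction and comparison, stalk, ubiquitin fusion and paralog genes, extremes of level, members called most often or differing between drivers, ribosomal proteins with other symbols, and up to 5 called genes per pathway list. RpL22, RpL28 and the members that followed the family most closely were named after their values were seen. Members and lists were chosen with earlier results of these data known. Alternatives left out the RIN term, the other driver or 1 library, centred or quantile-normalized the libraries, filtered low genes, added 1 CPM, added a replicate block or required a log2 fold change above 1. Same-numbered libraries of tau/TREM2R47H/TYROBP and GMR control deviated together (correlations 0.17 to 0.46). Those of TREM2R47H/TYROBP and elav control had correlations of 0.0026 to 0.015, and no other comparison had every pair above 0.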

Additional observations from a re-analysis of the deposited data

Results flagged for a closer look

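Of the 90 ribosomal protein genes, 2 had an effect of TREM2WT/TYROBP that differed between the drivers by the test of the difference in limma (adjusted p under 0.05). Of all genes, 1.82% passed the same test, a share close to that of the members. RpL23A had an effect in GMR heads less that in elav heads of 0.69 ± 0.15 (SE, adjusted p 0.0136), and RpS10b of 0.57 ± 0.13 (SE, adjusted p 0.0240). Without GMR TREM2WT/TYROBP replicate 1, the adjusted p was 0.0642 for RpL23A and 0.0926 for RpS10b. Both genes had slopes on RIN of opposite sign in the drivers when these were fitted apart, 0.45 in GMR and -0.12 in elav libraries for RpL23A, and 0.37 in GMR and -0.12 in elav libraries for RpS10b, and the part of this in the difference was not tested. Driver, sex markers and stock cannot be told apart here.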

How the results depend on the processing

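No called difference of a named member reversed under any alternative (466 values). Of 29 member calls other than those between the driver controls, 2 held under every alternative but a log2 fold change above 1: RpL23A with TREM2WT/TYROBP and with tau/TREM2WT/TYROBP, each against the GMR control. Of 191 counts of called members under another setting, 53 were over 1.5 times from the count reported. The share of all genes called is given only for counts without the RIN term. The other counts under changed settings therefore cannot be set against a background.

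Counts without the RIN term are given with the share of all genes called in brackets. In elav heads they were, against control, 1 for TREM2WT/TYROBP (4.44%) and 2 for TREM2R47H/TYROBP (5.06%). They were 0 for Aβ42/TREM2WT/TYROBP (10.1%) and 2 for Aβ42/TREM2R47H/TYROBP (10.6%) against control. Against Aβ42, Aβ42/TREM2R47H/TYROBP had 1 (5.08%). In GMR heads the counts against control were 1 for TREM2WT/TYROBP (3.69%), 19 for TREM2R47H/TYROBP (6.49%), 0 for tau (3.40%) and 1 for tau/TREM2WT/TYROBP (6.07%). They were 0 for TREM2WT/TYROBP (2.78%) and 0 for TREM2R47H/TYROBP (2.74%) added to tau. TREM2R47H/TYROBP against TREM2WT/TYROBP had 66 (5.03%), and the same with tau had 0 (3.61%). The differences between drivers had 0 for TREM2WT/TYROBP (0.973%) and 1 for TREM2R47H/TYROBP (1.30%).

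With the libraries of 1 driver fitted alone, 0 members were called for Aβ42/TREM2WT/TYROBP, 2 for Aβ42/TREM2R47H/TYROBP, 1 for TREM2WT/TYROBP and 0 for TREM2R47H/TYROBP in GMR heads, 0 for either receptor added to tau and 0 for TREM2R47H/TYROBP against TREM2WT/TYROBP in GMR heads. Centring left 0 for TREM2R47H/TYROBP in GMR heads, and tau/TREM2WT/TYROBP had 3 of 90. Quantile normalization gave 2 each for TREM2WT/TYROBP and TREM2R47H/TYROBP in elav heads, 3 for Aβ42/TREM2R47H/TYROBP, 2 for TREM2WT/TYROBP added to Aβ42, 0 for TREM2R47H/TYROBP in GMR heads, 5 for tau and 0 for TREM2R47H/TYROBP added to tau. The filter on low genes and 1 CPM added each gave 0 for Aβ42/TREM2R47H/TYROBP against control and against Aβ42/TREM2WT/TYROBP, and 2 for TREM2WT/TYROBP added to Aβ42; the interaction of tau and TREM2WT/TYROBP had 5 with the filter and 3 with 1 CPM added.

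A log2 fold change above 1 left 3 members between the driver controls, RpL41, RpLP1 and RpL39, and 0 in every comparison within a driver except those of RpS19b, with 1 each. With the replicate block and the RIN term, 0 were called for TREM2R47H/TYROBP in GMR heads, 1 for tau/TREM2WT/TYROBP against control, 0 for TREM2R47H/TYROBP added to tau and 1 for the difference between drivers of TREM2WT/TYROBP; 80 were called between the driver controls and 0 for tau/TREM2R47H/TYROBP against control.

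Leaving out 1 library gave 79 to 81 members between the driver controls, 2 to 12 for tau, 1 to 4 for TREM2WT/TYROBP and 0 to 2 for TREM2R47H/TYROBP in GMR heads, 1 to 5 for tau/TREM2WT/TYROBP and 0 to 1 for tau/TREM2R47H/TYROBP against control, 0 to 2 and 0 to 1 for the wild-type receptor and the variant added to tau, 0 to 3 for the variant against the wild-type receptor, 1 to 1 for the same with tau, and 0 to 5 for the interaction of tau and TREM2WT/TYROBP. In elav heads it gave 0 to 1 for TREM2WT/TYROBP, 1 to 2 for Aβ42/TREM2WT/TYROBP and 0 to 1 for Aβ42/TREM2R47H/TYROBP against control, 0 to 3 and 1 to 5 for the wild-type receptor and the variant added to Aβ42, 0 to 1 for the variant against the wild-type receptor with or without Aβ42, and 0 to 1 for either interaction. The difference between drivers gave 0 to 3 for TREM2WT/TYROBP. The cause of these changes was not tested. With log2 CPM alone, what depth limits in low paralogs is not known.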
